A study of Glycine max with 6 samples.

Results

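Hotspots of ABI5 binding are 1 Mb stretches of the soybean genome that held 30 or more binding regions found in every ChIP-seq library of mid-maturation embryos. ChIP-seq is chromatin immunoprecipitation followed by sequencing, and a peak is a stretch where precipitated fragments pile up above the background. The protein precipitated was GLYMA.13G153200, named ABI5 in the deposited peak lists. Peaks of different libraries were linked where 50% or more of the shorter one was overlapped, linked peaks formed a region, and a region with a peak in all 4 ChIP libraries is called shared. Each shared region was put by its midpoint into a 1 Mb bin, and bins holding 30 or more were kept, on chromosomes 1 to 20 without chromosome 13. This gave 2868 regions in 83 hotspot bins. They are 27.0% of the 10604 shared regions on these 19 chromosomes, and 24.9% of the 11511 in the whole series. The members were chosen by the number of shared regions per bin, so that number, and whatever follows from it such as spacing, is described here without a test. They were set against the 7736 shared regions in the 731 bins that held 1 to 29, which are called other bins.

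Chromatin came from mid-maturation embryos of the soybean (Glycine max) cultivar Williams 82, dissected from seeds of 200 to 250 mg and crosslinked for 10 min in 1% formaldehyde. Antibody 2 and antibody 1 were raised against different peptides of the protein, at amino acids 103 to 117 and 275 to 289, and the labels do not say which number stands for which peptide. Each antibody was used on 2 biological replicates, and 2 input libraries of unprecipitated chromatin served as controls, which makes 6 samples of wild-type embryos with no genetic or chemical treatment. Whole embryos were used, so strong occupancy in few cells and weak occupancy in many cells cannot be told apart.

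ABI5 (ABSCISIC ACID INSENSITIVE 5) is a basic leucine zipper transcription factor, known best from Arabidopsis, where it acts downstream of abscisic acid in seeds and activates genes of late embryo development and desiccation tolerance. Factors of this family bind as dimers to short DNA elements with an ACGT core, including the abscisic acid response element of many seed promoters. Soybean chromosomes, like those of many plants, carry most of their genes in the arms, and long gene-poor, repeat-rich stretches surround the centromeres. The gene table used here is on an assembly that the deposited lists do not name, so which genes lie in the hotspots was not analysed here.

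The lists as deposited were of unequal length, with 23296 and 36189 peaks for antibody 2 (replicates 1 and 2), against 12047 and 27768 peaks for antibody 1. Since a shared region needs a peak in each list, the shortest list limits how many there are. The median peak had 43.1 and 35 fragments at its summit with antibody 2, and 42.8 and 38 with antibody 1, as solved from the deposited values. The labels number 2 biological replicates for either antibody and do not say whether a number marks the same chromatin, so the 4 libraries may not be independent, and p-values over them measure only the spread between libraries.

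Hotspots were few and lay towards the chromosome ends, as did bins just under the limit. Of the 910 bins of 1 Mb on the 19 chromosomes, 96 held no shared region, 731 held 1 to 29 and 83 were hotspots. The hotspots are 10.2% of the 814 bins with any shared region. A hotspot bin held a median of 33 shared regions and at most 54, and another bin with any held a median of 7. The centre of a hotspot bin lay a median of 4.02 Mb from the nearest chromosome end (quartiles 2.45 and 6.38, n = 83), and that of another bin 11.5 Mb (6.41 and 17.4, n = 731). By number of shared regions, the median was 5.21 Mb in bins of 20 to 24 and 4.5 Mb in bins of 25 to 29. In bins of 30 to 34 it was 4.24 Mb, and in bins of 35 to 39 it was 3.11 Mb. Bins of 40 or more had 5.5 Mb. A place near the ends was thus not particular to hotspots. The last peak in any list set the length of each chromosome.

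Nearly every hotspot bin, 78 of 83, had its centre in the outer 25% of a chromosome at either end. Few bins of either kind were at the very tip, 8.43% of hotspot bins and 4.92% of other bins within 1 Mb of an end. Arm and centromere boundaries were not used here. In the outer 25% of a chromosome at either end lay 2709 of the 2868 hotspot regions, which is 94.5% (95% exact binomial interval 93.6 to 95.3, counting error only), and 75.9% of the 7736 regions of other bins (74.9 to 76.8). Over all 10604 shared regions the share was 80.9%, and regions in 1 stretch share their position, so the interval takes them as more independent than they are. At a limit of 25 regions per bin the share of members was 95.4%, and at a limit of 35 it was 98.4%. The share was thus no lower with the bins of 25 to 29 included, and bins with fewer regions made the contrast with other bins. Of the hotspot bins, 7 of 83 had their centre within 1 Mb of an end, 53 within 5 Mb and 76 within 10 Mb. Among other bins, 36 of 731 had their centre within 1 Mb, 142 within 5 Mb and 306 within 10 Mb. The 5 hotspot bins outside the outer parts were 10 to 11 Mb and 11 to 12 Mb on chromosome 17, with 42 and 34 regions, 15 to 16 Mb on chromosome 2 with 32, 14 to 15 Mb on chromosome 8 with 32, and 10 to 11 Mb on chromosome 11 with 31.

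**Figure D1:**
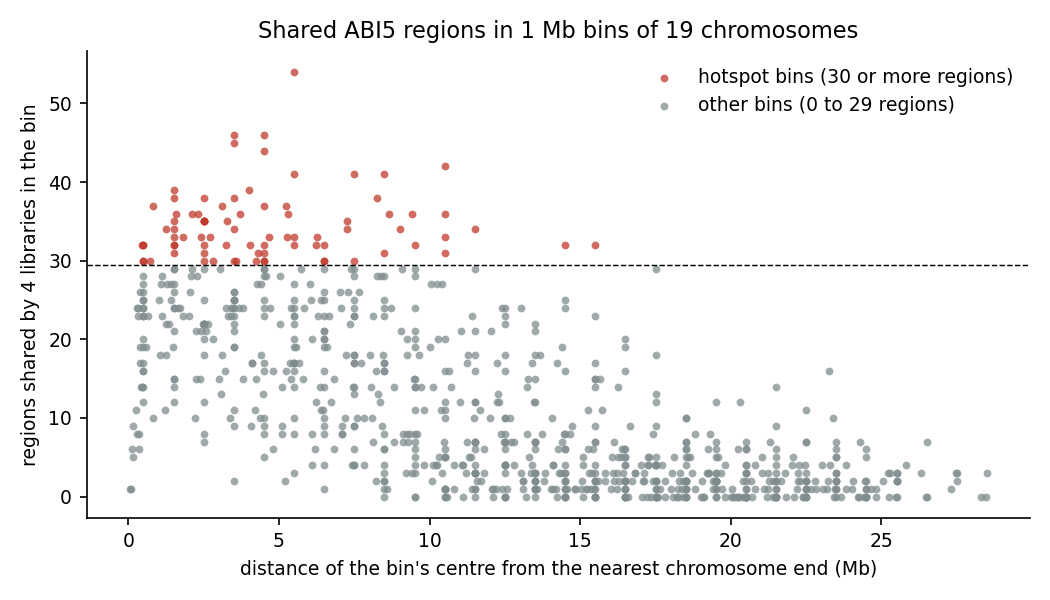
Number of regions shared by 4 libraries in each 1 Mb bin (vertical axis) against the distance of the bin's centre from the nearest chromosome end in Mb (horizontal axis); each point is a bin, red for the 83 hotspot bins and grey for bins of 0 to 29 regions, and the dashed line marks the limit of 30. Hotspot bins lie mostly within 10 Mb of an end (76 of 83), and bins with few regions occur at every distance.

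Chromosomes differed widely in how much of their binding lay in hotspots. Chromosome 17 had the most, with 9 hotspot bins of 42 holding 336 of its 675 shared regions, or 49.8%. On chromosome 11, the shortest of those used, 8 of 35 bins were hotspots, with 265 of 583 regions (45.5%). Chromosome 4 had 7 hotspot bins with 250 of 565 regions (44.2%), and chromosome 6 had 8 with 298 of 732 (40.7%). These 4 chromosomes held 32 of the 83 hotspot bins. At the other end, chromosome 7 had no hotspot although it held 509 shared regions, and its fullest bin had 29, just under the limit. Chromosome 16 had 1 hotspot, at 2 to 3 Mb with 31 regions, which is 8.56% of its 362. Chromosomes 15 and 20 had 2 each, with 16.3% and 14.6% of their regions.

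A high number of shared regions per Mb did not always go with many hotspots. Chromosomes 11 and 17 had the most shared regions per Mb, 16.8 and 16.2. They also had the highest shares in hotspots, 45.5% and 49.8%. Chromosome 8 had 14.6 shared regions per Mb and chromosome 6 had 14.3, yet 18.6% of the regions on chromosome 8 and 40.7% of those on chromosome 6 were in hotspots. On 10 chromosomes hotspots lay on both sides of the midpoint, on 5 only at lower coordinates and on 3 only at higher ones.

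**Figure D2:**
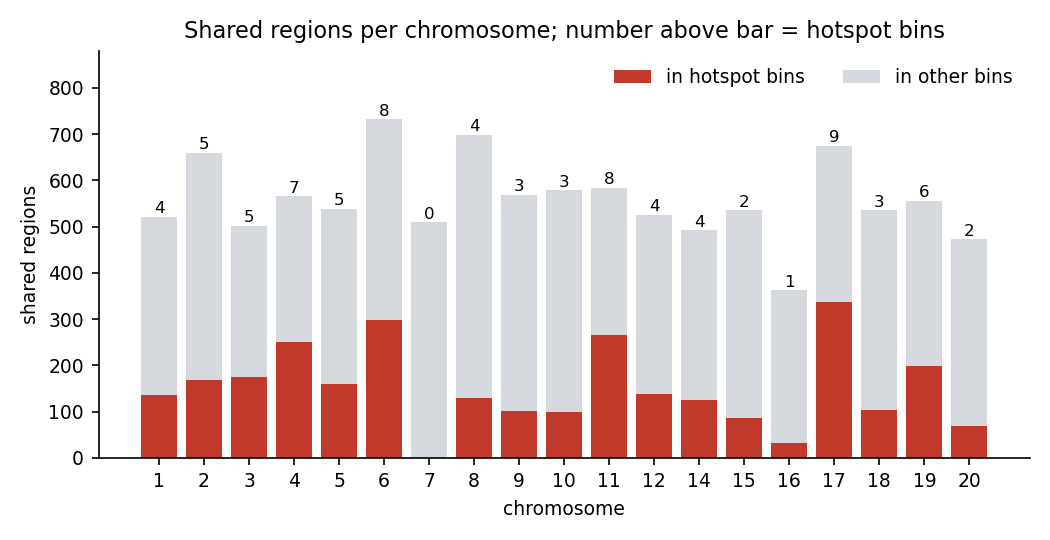
Shared regions on each of the 19 chromosomes, as stacked bars with the part in hotspot bins in red and the part in other bins in grey; the number above a bar counts the hotspot bins. Chromosome 17 has 9 hotspot bins and chromosome 7 has none.

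The fullest hotspot lay at 5 to 6 Mb on chromosome 15 and held 54 shared regions. With antibody 2 this megabase held 83 peaks in replicate 1 and 112 in replicate 2, and with antibody 1 it held 55 and 90. Its neighbours in the ranking were 4 to 5 Mb on chromosome 4 and 3 to 4 Mb on chromosome 17, with 46 shared regions each. The first of these held 73 and 116 peaks with antibody 2 and 49 and 93 with antibody 1, and the second held 72 and 102 with antibody 2 and 47 and 79 with antibody 1. In each of these bins the antibody 1 replicate 1 list held only a few peaks more than the number of shared regions.

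Chromosome 6 held 3 of the 10 fullest bins, at 3 to 4 Mb with 45 regions, 4 to 5 Mb with 44 and 8 to 9 Mb with 41. The first of them had the most peaks of the 10 in antibody 1 replicate 2, 111, and in antibody 2 replicate 2, 130. Chromosome 17 held 3 more, at 10 to 11 Mb with 42 regions and at 5 to 6 Mb and 7 to 8 Mb with 41 each. The tenth was on chromosome 2 at 44 to 45 Mb, with 39 regions, a number that 1 to 2 Mb on chromosome 6 also reached. The order of the 10 fullest bins rests on differences of a few regions and was not tested.

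Hotspots tended to adjoin one another and to sit inside wider stretches of dense binding. Of the 83 hotspot bins, 50 formed 17 runs of 2 to 6 adjoining bins and 33 stood alone. The longest run was at 2 to 8 Mb on chromosome 17, with 224 shared regions in 6 Mb and 30 to 46 per bin. The next was at 43 to 48 Mb on chromosome 19, with 165 regions in 5 Mb. Runs of 4 bins lay at 3 to 7 Mb on chromosome 6 with 153 regions, at 37 to 41 Mb on chromosome 3 with 139 and at 1 to 5 Mb on chromosome 11 with 136. Runs of 3 bins lay at 8 to 11 Mb on chromosome 6, 0 to 3 Mb on chromosome 18 and 49 to 52 Mb on chromosome 4.

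The fullest bin of all stood alone. The bin next to a hotspot, at lower coordinates, held a median of 28 shared regions (quartiles 23 and 32.5, n = 79), and the bin at higher coordinates 27 (23 and 32.8, n = 82). Next to another bin the medians were 7 on either side. At a distance of 5 Mb the medians were 23 and 21 around hotspots, and 6 and 6 around other bins. Of the bins next to a hotspot at lower coordinates, 41.8% were hotspots themselves, against 6.84% of those next to another bin.

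**Figure D3:**
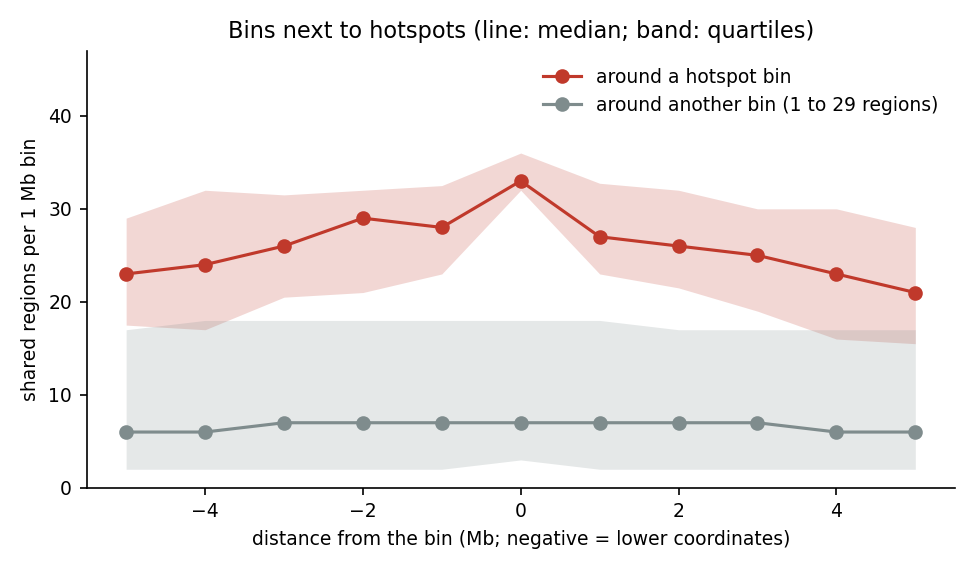
Median number of shared regions per 1 Mb bin (line with points; the band spans the quartiles) in bins up to 5 Mb on either side of a hotspot bin (red) or of another bin with 1 to 29 regions (grey). Around hotspots the median falls from 33 in the hotspot itself to 23 and 21 at 5 Mb on the lower and higher side, and around other bins it stays at 6 or 7.

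The limit of 30 did not mark a step in the data. Bins with exactly 30 shared regions numbered 13, and bins with exactly 29 numbered 15. Bins of 30 held a median of 57 and 91 peaks with antibody 2 (replicates 1 and 2) and 31 and 68 with antibody 1, and bins of 29 held 58 and 89 with antibody 2 and 30 and 67 with antibody 1. Median fold enrichment, the ratio of ChIP signal to local background at the summit as the authors' peak caller gave it, was 7.61 and 9.47 with antibody 2 and 5.31 and 8.90 with antibody 1 in bins of 30. In bins of 29 it was 7.18 and 9.21 with antibody 2 and 5.23 and 8.50 with antibody 1.

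Regions that were not shared by every library were dense in the hotspots as well. Hotspot bins held a mean of 20.4 regions per Mb with peaks in 3 libraries, 20.3 in 2 libraries and 30.9 in 1 library, besides the 34.6 shared regions that chose them. Other bins held 7.76, 7.64 and 11.9, besides 10.6 shared ones. These classes are exclusive of one another and use peaks that did not enter the choice, although all come from the same 4 libraries. The lowest number of regions in 3 libraries in any hotspot was 13, and the median of other bins was 5. The highest numbers in 3, 2 and 1 libraries were 36, 33 and 50 in hotspots and 34, 33 and 46 in other bins, so the ranges overlapped. In the 65 bins of 25 to 29, the 1755 shared regions were 29.1% of all regions. Regions not shared by every library were thus dense just under the limit too. Shared regions made up 32.6% of all regions in hotspots and 27.9% in other bins, a difference that the choice of bins itself favours.

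Peak numbers in each list describe how the hotspots were filled. A shared region has a peak in every list, so a bin of 30 or more is dense in each list by the rule. With antibody 2 a hotspot bin held a median of 63 peaks in replicate 1 (range 50 to 88) and 96 in replicate 2 (70 to 133), and with antibody 1 it held 35 (30 to 55) and 74 (57 to 111). Other bins had medians of 14, 22, 8 and 17 in the same order, with highest values of 74, 111, 33 and 82, so the ranges overlapped in each list.

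**Figure D4:**
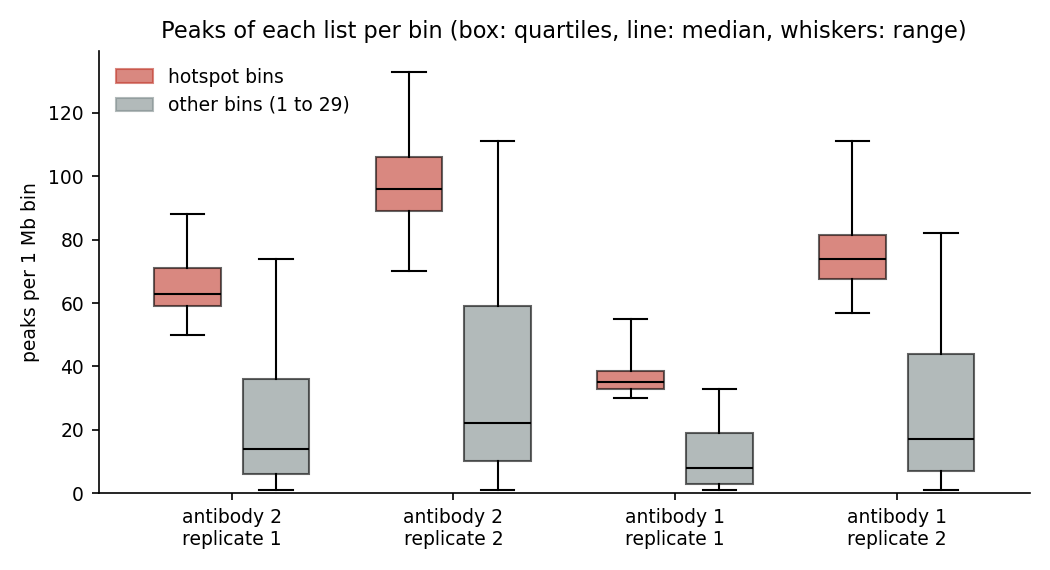
Peaks of each of the 4 lists per 1 Mb bin, for the 83 hotspot bins (red) and the 731 other bins with 1 to 29 shared regions (grey); boxes span the quartiles with the median as a line, and whiskers span the whole range. The hotspot medians are 63, 96, 35 and 74 from left to right, against 14, 22, 8 and 17, and the ranges overlap.

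When the 83 bins with most peaks were taken from 1 list alone, 77 of them (92.8%) were hotspots with antibody 1 replicate 1, the shortest list. The numbers were 57 with antibody 1 replicate 2, 58 with antibody 2 replicate 1 and 54 with antibody 2 replicate 2. Hotspots thus shared most bins with the ranking by the shortest list. Without that list, 276 bins reached 30 regions, and 62 of the 83 densest were hotspots. Between the replicates, 58 of the 83 densest bins (69.9%) were in common, counting in each replicate the regions with a peak from both antibodies. Between the antibodies, counting regions with a peak in both replicates, 62 (74.7%) were in common.

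Bins chosen as densest in 1 replicate were also dense in the other, which is a description and no independent support. Bins chosen as the 83 densest in replicate 1 held a median of 67 regions of replicate 2 (range 52 to 92), and the remaining bins with a shared region held 16 (1 to 72). Bins chosen as the 83 densest in replicate 2 held a median of 33 regions of replicate 1 (23 to 55), and the remaining ones 8 (1 to 40). These choices of bins were added after the data were examined. They use the same lists as the rule, and each remaining bin had to hold a peak of every list. Across all 910 bins the peak numbers of any 2 lists had a Spearman's rho of 0.961 to 0.99, a description over bins that share the same libraries and the same uneven genome.

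The shares of each list's peaks that lay in the hotspots are a description, since the rule used these peaks. In antibody 1 replicate 1 nearly every peak there belongs to a member region, which raises the share of the shortest list by construction. With antibody 2, 5396 of 21471 peaks on the 19 chromosomes lay there in replicate 1 (25.1%) and 8030 of 33385 in replicate 2 (24.1%). With antibody 1 these were 2998 of 11110 (27.0%) and 6249 of 25579 (24.4%). The mean share was 24.6% with antibody 2 and 25.7% with antibody 1, a difference of -1.12 percentage points, beside 2.55 points between the antibody 1 replicates. Without antibody 1 replicate 1 the difference was 0.519 points, and with the 83 densest bins of lists cut to equal length it was 0.0661.

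Median strength differed little between hotspots and other bins, and the direction of the difference depended on the settings. Median fold enrichment over hotspot regions was 7.46 and 9.22 with antibody 2 (replicates 1 and 2), and 5.42 and 8.71 with antibody 1. Over regions of other bins it was 7.36 and 9.15 with antibody 2, and 5.45 and 8.72 with antibody 1. On the log2 scale hotspot medians differed from those of other bins by 0.019 and 0.011 with antibody 2 and by -0.0082 and -0.0015 with antibody 1. The mean over the 4 libraries was 0.0052 ± 0.012 (SD, n = 4), so the difference was smaller than the spread between libraries (exact sign-flip permutation test, two-sided p = 0.5, where 4 libraries cannot give less than 0.13). The sign turned without antibody 2 replicate 1 (-0.0066), antibody 2 replicate 2 (-0.00055) or antibody 1 replicate 1 (-0.014). With both sets limited to the outer 25% of the chromosomes the mean was 0.020, with the higher median in hotspots in 4 of 4 libraries (exact sign-flip permutation test, two-sided p = 0.13, the smallest possible). Hotspot medians were also higher in 4 of 4 libraries at a limit of 35 regions (mean 0.033) and with bins shifted by 500 kb (0.016). The same held with peaks of −log10 q of at least 10 (0.055) and with lists of equal length (0.081), which left only 14 and 8 hotspot bins. With the 83 densest bins of the lists of equal length the mean was 0.028. Averaged over the antibodies of each replicate number, the difference was 0.0055 in replicate 1 and 0.0049 in replicate 2 (exact sign-flip permutation test over 2 replicates, two-sided p = 0.5, the smallest possible). The choice of hotspots did not use fold enrichment directly, but a region had to be strong enough to be called in each list.

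The upper part of the distribution was slightly higher in hotspots in 3 of the 4 libraries. The upper quartile of fold enrichment with antibody 2 was 10.5 in hotspots against 10.2 in other bins for replicate 1, and 12.5 against 12.6 for replicate 2. With antibody 1 it was 7.75 in hotspots against 7.47 in other bins for replicate 1, and 12.3 against 12.1 for replicate 2. In each library the difference was small beside the width of the distribution, since the hotspot quartiles of antibody 2 replicate 2 alone were 6.87 and 12.5. The 90th percentile with antibody 2 was 14.7 in hotspots against 14.3 in other bins for replicate 1, and 17.7 against 17.3 for replicate 2. With antibody 1 the 90th percentile was 11.2 against 10.9 for replicate 1, and 17.2 against 16.5 for replicate 2. No test was made of the quartiles or of the 90th percentiles.

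**Figure D5:**
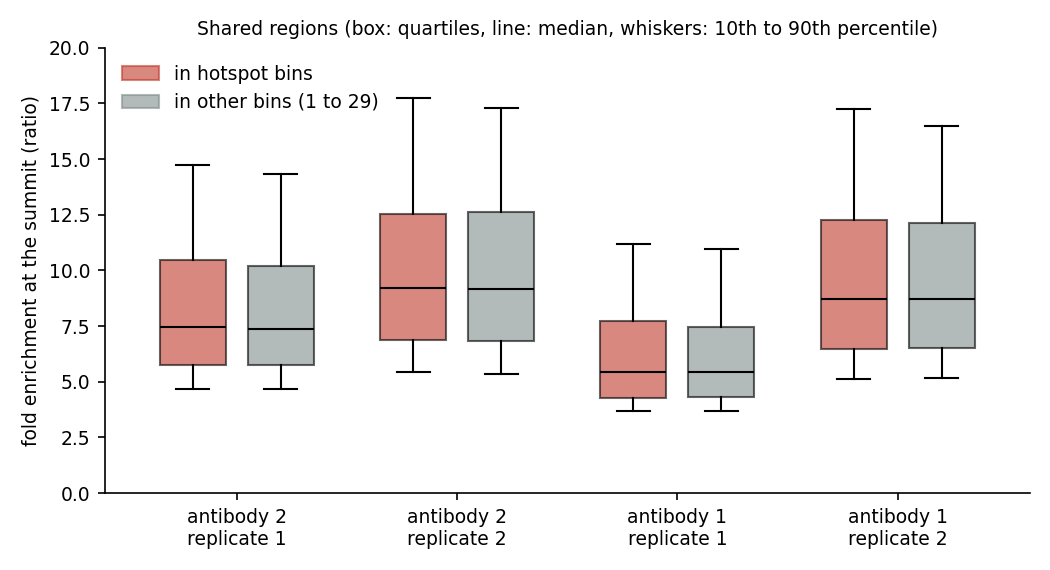
Fold enrichment at the summit of shared regions in each of the 4 libraries, in hotspot bins (red, 2868 regions) and in other bins (grey, 7736 regions); boxes span the quartiles with the median as a line, and whiskers span the 10th to 90th percentile. Within each library the medians nearly coincide, for example 9.22 in hotspots and 9.15 in other bins for antibody 2 replicate 2.

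The quantities behind fold enrichment also differed little. Fragment numbers at the summit had medians of 62.2 and 58 in hotspots with antibody 2 and of 44.7 and 59 with antibody 1, and of 61.4 and 58 with antibody 2 and 43.8 and 59 with antibody 1 in other bins. The mean log2 difference was 0.012 ± 0.015 (SD, n = 4; exact sign-flip permutation test, two-sided p = 0.5). Without antibody 1 replicate 1 it was -0.010, and at a limit of 35 regions 0.037. The background expected at the summit had a mean of 7.71 and 5.68 fragments in hotspots with antibody 2 and 7.57 and 6.08 with antibody 1. In other bins the means were 7.69 and 5.70 with antibody 2 and 7.52 and 6.09 with antibody 1. Its medians were equal in 3 libraries and 5.29 in hotspots against 5.43 in other bins in antibody 2 replicate 2 (mean log2 difference -0.0094 ± 0.019, SD, n = 4; exact sign-flip permutation test, two-sided p = 1).

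Within chromosomes the comparison went either way. On the 18 chromosomes with a hotspot, the log2 difference in median fold enrichment ran from -0.16 to 0.17 over the libraries. Hotspot sites had the higher median in all 4 libraries on 3 chromosomes and the lower in all 4 on 4 chromosomes. On chromosome 15 the hotspot medians were 7.85 and 9.56 with antibody 2 replicates 1 and 2, against 7.10 and 8.66 in its other bins. On chromosome 2 they were 6.78 and 8.29, against 7.49 and 9.08. Which of these differences would recur was not tested.

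Hotspot bins also varied among themselves. The median fold enrichment of a hotspot bin with antibody 2 ran from 5.96 to 9.41 in replicate 1 and from 7.18 to 11.5 in replicate 2, and with antibody 1 from 4.54 to 6.83 and from 6.54 to 10.6. The bin at 2 to 3 Mb on chromosome 18, with 38 regions, had the highest median in antibody 2 replicate 1, 9.41, and in antibody 1 replicate 1, 6.83, and had 10.3 and 9.97 in the replicate 2 libraries of antibody 2 and antibody 1. The bin at 2 to 3 Mb on chromosome 2, with 30 regions, had the lowest in both replicate 2 libraries, 7.18 with antibody 2 and 6.54 with antibody 1. Across the 83 bins these medians had a Spearman's rho of 0.664 to 0.738 between libraries of the same replicate number, and of 0.484 to 0.565 between the other pairs. These coefficients are a description over bins, each median resting on 30 to 54 regions.

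Fold enrichment varied several-fold within hotspot bins. Within a hotspot bin the highest fold enrichment was a median of 5.95 and 6.38 times the lowest with antibody 2 replicates 1 and 2, and 6.10 and 6.53 times with antibody 1 replicates 1 and 2. In the fullest bin, at 5 to 6 Mb on chromosome 15, fold enrichment in antibody 2 replicate 2 ran from 3.22 to 24.9 over the 54 regions with a median of 9.32. In the same bin antibody 1 replicate 1 ran from 2.84 to 17.7 with a median of 5.40.

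The strongest sites of the 19 chromosomes were not gathered in hotspots. A region counted as strong when it was in the top 10% of fold enrichment within each of the 4 lists. Of the hotspot regions, 271 of 2868 were strong, which is 9.45% (95% exact binomial interval 8.40 to 10.6, counting error only), against 8.91% of the regions of other bins (8.28 to 9.56) and 9.05% of all 10604. Both intervals take regions as more independent than they are. Strong regions occurred in 81 of the 83 hotspot bins, and up to 8 in a bin. Regions were also ranked by fold enrichment, each taken at its lowest percentile among the 4 lists. Of the 100 highest on the 19 chromosomes 20 were in hotspots, and of the 50 highest 8 were. Of the 15 highest 1 was, and of the 10 highest 1, while hotspots hold 27.0% of all shared regions. These counts were not tested.

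The highest-ranked hotspot region spanned bases 2852694 to 2853868 of chromosome 11, as numbered in the lists (build not named), and was 1175 bp wide. Its fold enrichment was 35.6 and 50.96 with antibody 2 replicates 1 and 2, and 40.01 and 52.0 with antibody 1. Its 4 summits fell in a span of 9 bp. It sat in a bin of 35 shared regions, at 2 to 3 Mb. A region spanning 40416623 to 40417268 of chromosome 3 had 25.7 and 34.3 with antibody 2, and 26.3 and 35.9 with antibody 1. The region on chromosome 11 at 31810775 to 31811799 had 30.7 and 29.3 with antibody 2, and 26.1 and 31.8 with antibody 1.

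At some of these sites the values lay closer between antibodies of 1 replicate number than between replicates. At 47905651 to 47906587 of chromosome 19, fold enrichment was 24.6 and 25.7 in replicate 1 with antibody 2 and antibody 1, and 44.6 and 45.0 in replicate 2. On chromosome 4, the region at 51614061 to 51614764 was higher in replicate 1, with 36.9 and 35.97 for antibody 2 and antibody 1, than in replicate 2, with 29.3 and 32.4. Fold enrichment is relative to each library's own background, so levels are set side by side between libraries only as a description.

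The other 5 of the 10 highest-ranked regions spanned 41060312 to 41061102 of chromosome 9, 1426684 to 1428119 of chromosome 1, 36169039 to 36169619 of chromosome 12, bases 778771 to 779440 near the start of chromosome 4, and 4458662 to 4459284 of chromosome 14. The region on chromosome 1 was the widest of the 10, at 1436 bp, and antibody 2 gave it 26.5 and 27.0, against 23.3 and 25.9 from antibody 1. Summits of the 4 libraries lay within 36 bp in 9 of the 10 regions, and within 160 bp in the region on chromosome 19. The bins of the 10 regions held 30 to 37 shared regions, so none was among the 10 fullest.

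Peaks in hotspots had a median width a few base pairs above that in other bins in each library. The median peak was 441 and 389 bp wide in hotspots with antibody 2 replicates 1 and 2, against 433 and 381.5 bp in other bins. With antibody 1 it was 340 and 375 bp in hotspots, against 338 and 370 bp. The mean log2 difference was 0.021 ± 0.0089 (SD, n = 4), with the same sign in 4 of 4 libraries, and the exact sign-flip permutation test gave its smallest possible two-sided p of 0.13. Over the 2 replicates, with the antibodies averaged, the exact test gave p = 0.5. With peaks of −log10 q of at least 10 the mean was 0.0029 and both antibody 1 libraries were below 0. Among joined regions, which span the peaks of 4 libraries, the median width was 472 bp in hotspots (quartiles 402 and 575, range 262 to 2164) and 463 bp in other bins (396 and 565, range 267 to 2086).

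Other marks of composite sites differed little between hotspots and other bins. More than 4 peaks had been joined in 97 of the 2868 hotspot regions, or 3.38% (95% exact binomial interval 2.75 to 4.11), against 2.78% in other bins (2.42 to 3.17) and 2.94% of all. With a library left out, regions with more peaks than the remaining libraries were counted instead, in the bins dense under that setting. That hotspot value was 1.96% without antibody 2 replicate 1, 2.23% without antibody 2 replicate 2 and 2.21% without antibody 1 replicate 1. More than 4 peaks were joined in 1.16% with lists of equal length. With reciprocal overlap the value was 0%, under a rule by which several peaks of a list can hardly link to the same peak. Other bins were not counted under these settings. Regions of 1000 bp or more made up 2.13% in hotspots and 1.62% in other bins. The 4 summits lay within 100 bp in 90.3% of hotspot regions (89.2 to 91.4) and in 91.2% of those in other bins (90.6 to 91.8), with a median span of 44 bp and 43 bp. The intervals for joined peaks and for summits hold counting error only and take regions as more independent than they are. The libraries also ranked hotspot sites about as alike as sites elsewhere. Spearman's rho of fold enrichment was 0.655 to 0.874 over the pairs of libraries in hotspots and 0.643 to 0.864 in other bins, across regions, which are not independent replicates.

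Inside a hotspot the sites were spread over the whole megabase. With each hotspot bin divided into 10 windows of 100 kb, 52 of the 83 had a shared region in every window, and the least filled had 7 windows occupied. The fullest window of a bin held a median of 20% of its regions (range 11.1% to 34.4%). Of the 830 windows 37 were empty, the median held 3 regions and the highest held 11. That number was reached on chromosome 17 at 3800 to 3900 kb and on chromosome 19 at 44000 to 44100 kb, and chromosome 18 at 2700 to 2800 kb held 10.

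Neighbouring summits lay closer in hotspots, which follows from the number of regions per bin. The median distance in hotspots was 18793 bp (quartiles 6904.5 and 38299.5, 2785 pairs), against 33828 in other bins (12025 and 76989.5, 7005 pairs). Pairs under 2000 bp apart made up 8.22% in hotspots and 5.71% in other bins, and pairs under 10000 bp apart 32.5% and 21.6%. In the fullest bin on chromosome 15 the median distance was 13685.5 bp and the longest 80219 bp, so no long empty stretch interrupted it.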

How the data were processed

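Bowtie 0.12.7 and MACS3 are the tools named, per the submitters' processing notes. Genome build, annotation and caller options: not given in the sources used here. Peaks were called for each library separately at a q-value of 0.01, per the names of the deposited files. The fold enrichment used here is the ratio of ChIP signal to local background deposited by the authors, and significance is their deposited −log10 p and −log10 q. These are each peak's own values from the authors' caller. Input libraries entered only through that background. The members, groupings and tests were chosen with earlier results of these data known. Summit fragments and background were solved from fold enrichment (taken with 1 added above and below) and the Poisson −log10 p. The pileup came out whole (tolerance 0.02) for 99.9% of replicate 2 peaks of either antibody. In replicate 1 it did for 6.10% with antibody 1 and 2.47% with antibody 2, and those values are as scaled for the call. At most 0.119% of a list had no solution.

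Where a region held several peaks of a list, the one of highest fold enrichment was used. Hotspot and other bins were compared as the log2 ratio of medians within each library, with an exact sign-flip test over the 4 libraries. That test was repeated over the 2 replicates with antibodies averaged, an alternative added after seeing the data. An exact permutation test of antibody labels was planned for the share of peaks in hotspots; its p is not given, since the rule used those peaks. Whether same-numbered antibody libraries share chromatin is not stated. Regions and bins were named by rule: the 10 fullest bins, the 10 regions with the best worst percentile, bins of 30 and 29, and runs of adjoining bins. The inner hotspot bins, the fullest 100 kb windows and the bins of highest and lowest median were named after their values were seen. Alternatives were stricter q-values, other overlaps, lists of equal length, shifted bins, limits of 25 and 35, the outer 25% alone, chromosome 13 included, each library left out and the replicate block. Python 3.11.15, numpy 2.4.6, pandas 2.3.3 and scipy 1.17.1 were used, and the steps were tested on simulated data.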

Additional observations from a re-analysis of the deposited data

Results flagged for a closer look

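The difference in median fold enrichment between hotspots and other bins had opposite signs with the antibodies. In log2 units it was 0.0192 (replicate 1) and 0.0112 (replicate 2) with antibody 2, against -0.00822 and -0.00146 with antibody 1. All 4 libraries were above 0 with reciprocal overlap, shifted bins, a limit of 35 regions, −log10 q of at least 10, lists of equal length, or the outer 25% of chromosomes alone. At −log10 q of at least 5 and at a limit of 25, the antibody 2 libraries differed in sign. Replicate 1 had 0.023 and 0.015 there, and replicate 2 had -0.00034 and -0.0073. The difference between the antibodies was not tested.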

How the results depend on the processing

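The number of hotspots depended on list length and on the limit. Against 83 bins with 2868 regions, peaks of −log10 q of at least 10 gave 14 bins with 464 regions, lists of equal length 8 with 259, a limit of 25 regions 148 with 4623 and a limit of 35 regions 34 with 1311; fewer shared regions or another limit make this difference by construction. Without 1 library there were 85 to 276 bins with 2960 to 12151 regions, the highest without antibody 1 replicate 1, and the 83 densest bins then held 4595. Of the 83 densest bins, 69 were hotspots with lists of equal length and 62 without antibody 1 replicate 1. The log2 difference in fold enrichment, 0.0052, was -0.0080 at a limit of 25, and -0.0144 to 0.0059 without 1 library (-0.0144 without antibody 1 replicate 1, -0.0066 without antibody 2 replicate 1, -0.00055 without antibody 2 replicate 2, and -0.0043 and -0.0062 for the first 2 of these with the 83 densest bins). It was larger, and above 0 in 4 of 4 libraries, with lists of equal length (0.081, or 0.028 with the 83 densest bins), at −log10 q of at least 10 (0.055), at a limit of 35 (0.033), in the outer 25% (0.020), with shifted bins (0.016) and with reciprocal overlap (0.011). That in fragments, 0.012, was -0.0017 at −log10 q of at least 5, -0.020 at a limit of 25 and -0.0103 to 0.0034 without 1 library, and above 0 in 4 of 4 libraries with lists of equal length (0.041), at a limit of 35 (0.037), at −log10 q of at least 10 (0.029) and in the outer 25% (0.025). The cause was not tested. The mean for peak width, 0.021, stayed above 0 but was 0.0029 at −log10 q of at least 10, where both antibody 1 libraries were below 0. The antibody difference, -1.12 points, was -2.39 to 0.519 without 1 library, and 0.04996 without antibody 1 replicate 1 and 0.0661 with lists of equal length, both with the 83 densest bins. With the replicate block it was -1.12, with -1.85 in replicate 1 and -0.377 in replicate 2. The block over 2 replicates gave 0.0052 for fold enrichment, 0.021 for width, 0.012 for fragments and -0.0094 for background, with p of 0.5 for the first 2 and 1 for the others (exact sign-flip permutation test, smallest possible p 0.5). The 83-bin alternatives and that block were chosen after seeing the data. Of 193 alternative values 149 were counted as keeping their direction or range. That count takes a difference of exactly 0 as kept, which occurred for background and fragments. It also includes the replicate block, whose means average the main values and so could not differ from them.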

Other observations

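Fold enrichment showed no steady course over the whole range of bin densities. In antibody 2 replicate 2 its median was 9.42 in bins of 1 to 4 shared regions, 9.21 in bins of 20 to 24, 9.06 in bins of 30 to 34 and 9.61 in the 9 bins of 40 or more. In antibody 1 replicate 1 it was 5.42, 5.45, 5.30 and 5.75 in the same classes. The 9 fullest bins had the highest median of the 9 density classes in each of the 4 libraries. They hold 400 regions, the class was made after the data were examined, and this was not tested.

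The 96 bins without a shared region were not empty of peaks. They held a mean of 0.979 regions per Mb with peaks in 3 libraries, 0.917 in 2 and 1.77 in 1.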
